A study of Mus musculus with 11 samples.

Results

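A set of 10 genes tied to T cell quiescence was followed across naive and memory CD8 T cells: the forkhead factors Foxo1, Foxo3 and Foxp1, the Krüppel-like factors Klf2, Klf3 and Klf13, the anti-proliferative genes Btg1, Btg2 and Tob1, and the Schlafen gene Slfn2. They were taken from the count table by gene name. They are 10 of the 52636 genes in the table, and all 10 were among the 13735 genes abundant enough to test. RNA was sequenced from CD8 T cells of C57BL/6 mouse spleen, in 4 libraries of CD45RBhi memory cells, 4 libraries of CD45RBlo memory cells and 3 libraries of naive cells. The memory cells were specific for the viral peptide NP396 and were isolated with an NP396 tetramer in week 6 (days 42 to 45) after 200000 pfu of LCMV Armstrong given i.p., an infection that mice clear. CD45RB is a splice form of the surface phosphatase CD45. The naive cells are labelled CD44lo, but their labels repeat the infection protocol and carry a time entry of 6 to 8 weeks whose meaning is not stated. Naive and memory cells therefore differ in antigen history, in sorting and possibly in other respects that cannot be told apart here. Whether each replicate came from its own mouse is not stated, so the tests reflect the spread among these libraries, which may be technical.

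Naive and resting memory T cells stay out of the cell cycle by active means. FOXO factors are held in the cytoplasm when AKT phosphorylates them and act in the nucleus when PI3K-AKT signalling is low, where they switch on genes for survival, homing and cell cycle arrest. KLF2 maintains quiescence and lymphoid recirculation of T cells, FOXP1 restrains naive T cells in mice, and loss of Slfn2 function in mice breaks T cell quiescence. BTG and TOB proteins bring the CCR4-NOT deadenylase to messenger RNAs and so promote their decay.

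The promoters of 4 members are shown because they belong to the genes with the largest changes between memory and naive cells (Btg2, Tob1 and Foxo1) and to the one member whose promoter window held a forkhead motif (Btg1). They are RefSeq sequences on GRCm38.p6, from 250 bases before to 50 bases after the annotated start, read 5′ to 3′ on the strand of the gene. Capitals mark matches on either strand to the forkhead motif TGTTTAC, the KLF motif CACCC, the GC box GGGCGG and the cyclic AMP response element TGACGTCA. Where 2 matches overlap, the capitals run together. The Btg2 window is chr1:134079106-134079405 on the minus strand, and the other 3 lie on the plus strand, at chr11:94211204-94211503 (Tob1), chr3:52268087-52268386 (Foxo1) and chr10:96616751-96617050 (Btg1).
Btg2: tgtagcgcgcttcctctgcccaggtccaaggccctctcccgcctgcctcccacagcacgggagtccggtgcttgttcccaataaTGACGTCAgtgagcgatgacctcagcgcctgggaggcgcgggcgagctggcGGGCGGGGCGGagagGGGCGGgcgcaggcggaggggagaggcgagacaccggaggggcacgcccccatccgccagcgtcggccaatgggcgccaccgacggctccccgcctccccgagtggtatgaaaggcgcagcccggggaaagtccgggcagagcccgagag
Tob1: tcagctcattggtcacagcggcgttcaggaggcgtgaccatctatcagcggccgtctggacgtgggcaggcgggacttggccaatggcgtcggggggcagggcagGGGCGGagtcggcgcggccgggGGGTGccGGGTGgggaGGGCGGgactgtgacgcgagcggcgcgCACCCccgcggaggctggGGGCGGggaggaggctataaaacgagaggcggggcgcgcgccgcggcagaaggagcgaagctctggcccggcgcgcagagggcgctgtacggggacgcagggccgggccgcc
Foxo1: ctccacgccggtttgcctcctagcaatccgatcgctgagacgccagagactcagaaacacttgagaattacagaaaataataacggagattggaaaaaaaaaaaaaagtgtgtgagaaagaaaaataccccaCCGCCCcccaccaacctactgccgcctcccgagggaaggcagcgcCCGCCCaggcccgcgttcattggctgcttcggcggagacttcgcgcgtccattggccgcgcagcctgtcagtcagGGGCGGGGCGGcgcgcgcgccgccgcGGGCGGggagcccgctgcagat
Btg1: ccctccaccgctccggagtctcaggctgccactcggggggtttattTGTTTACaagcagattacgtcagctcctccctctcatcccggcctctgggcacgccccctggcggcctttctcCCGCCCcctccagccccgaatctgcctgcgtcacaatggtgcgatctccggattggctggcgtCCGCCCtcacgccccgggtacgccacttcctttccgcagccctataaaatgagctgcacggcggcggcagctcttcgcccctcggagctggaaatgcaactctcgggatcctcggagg

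All 10 members matched a RefSeq promoter, Foxp1 with 3 start sites and each other member with 1. Btg2 was the single member with the cyclic AMP response element, at position 85 of its window, a motif that 1.79% of 32851 RefSeq promoters hold. Btg1 was the single member with the forkhead motif, at position 47, which 3.65% of promoters hold. The GC box was found in 9 of 10 members, against 35.7% of all promoters, and CACCC in 6 of 10, against 57.5%. A member was counted if any of its windows matched, whereas the shares count each promoter by itself. These matches describe letters in a window, and no binding was measured.

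The memory libraries carried the expression of antigen-experienced CD8 T cells. The 7 CD8 T cell markers summed to between 7672 and 8786 CPM (counts relative to a TMM-scaled library size) in CD45RBhi, 7182 and 8617 in CD45RBlo and 7366 and 7853 in naive libraries. The 6 antigen experience markers summed to at least 7302 CPM in CD45RBhi and 7088 in CD45RBlo libraries, against at most 812 in naive libraries. Total counts ran from 18.02 to 23.15 M per library. Markers of other cells moved with the memory-to-naive contrast. The 12 B cell markers summed to 194 to 499.7 CPM in CD45RBhi, 191 to 437 in CD45RBlo and 1146 to 1301 in naive libraries, mostly from Ighm, and Pax5 was at 0 in all memory libraries. In CD45RBhi against naive 8 of the 10 B cell markers tested were lower and 1 was higher, and in CD45RBlo against naive 9 were lower and 1 was higher. The 10 erythroid and platelet markers summed to at most 2.09 CPM in CD45RBhi and 25.2 in CD45RBlo, against 241 to 529 in naive libraries, and all 8 tested were lower in both memory groups. The 12 myeloid markers summed to 28.8 to 39.7 CPM in CD45RBhi, 25.3 to 35.3 in CD45RBlo and 37.0 to 59.9 in naive libraries, with 5 of 6 tested lower and 1 higher in each memory group. The 7 NK cell markers, which memory CD8 T cells share in part, summed to 301 to 505 CPM in CD45RBhi, 338 to 500.3 in CD45RBlo and 42.1 to 50.6 in naive libraries, with 4 of 6 tested higher and none lower in each memory group. The 5 CD4 and regulatory T cell markers summed to 16.3 to 27.3 CPM in CD45RBhi, 18.3 to 24.8 in CD45RBlo and 6.44 to 7.68 in naive libraries, with 1 of 4 tested higher and 1 lower in each memory group. The 6 dendritic cell markers summed to 8.33 to 13.1, 9.67 to 14.7 and 3.11 to 4.73 CPM in the same groups, with 1 of 2 tested higher in each memory group. In memory libraries single genes carried most of the CD4, dendritic and myeloid sums. Il2ra averaged 18.6 CPM in CD45RBhi, 15.4 in CD45RBlo and 0.706 in naive libraries. Xcr1 averaged 7.95, 9.78 and 1.12, and Cd68 31.8, 27.5 and 3.65 in these groups. Cd4, Foxp3 and Ikzf2 had lower means in both memory groups than in naive libraries, and Cd40lg a higher one. The other dendritic cell markers had lower means in both memory groups. The part of these other cells in the results was not tested. In bulk RNA a change in the number of expressing cells and a change in RNA per cell cannot be told apart.

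Memory cells differed from naive cells in most of these genes, in both directions. Against naive libraries, 8 of 10 members changed in CD45RBhi cells, with Btg2, Tob1, Slfn2 and Klf2 higher and Foxo1, Foxp1, Klf13 and Btg1 lower. In CD45RBlo cells 7 changed, the same 4 higher and Foxo1, Foxp1 and Klf13 lower (edgeR quasi-likelihood test, Benjamini-Hochberg adjusted over all genes tested, threshold 0.05). Of all genes tested, 41.5% passed in CD45RBhi against naive (22.3% higher and 19.1% lower) and 42.2% in CD45RBlo against naive (22.4% higher and 19.8% lower). The 2 contrasts share the naive libraries and are not independent. The median log2 fold change of the members was -0.07 in CD45RBhi and 0.03 in CD45RBlo, against -0.01 over all genes in each. Groups did not overlap for 8 members in CD45RBhi against naive, where 47.4% of all genes did not overlap, and for 9 in CD45RBlo against naive, where 49.6% did not.

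**Figure D1:**
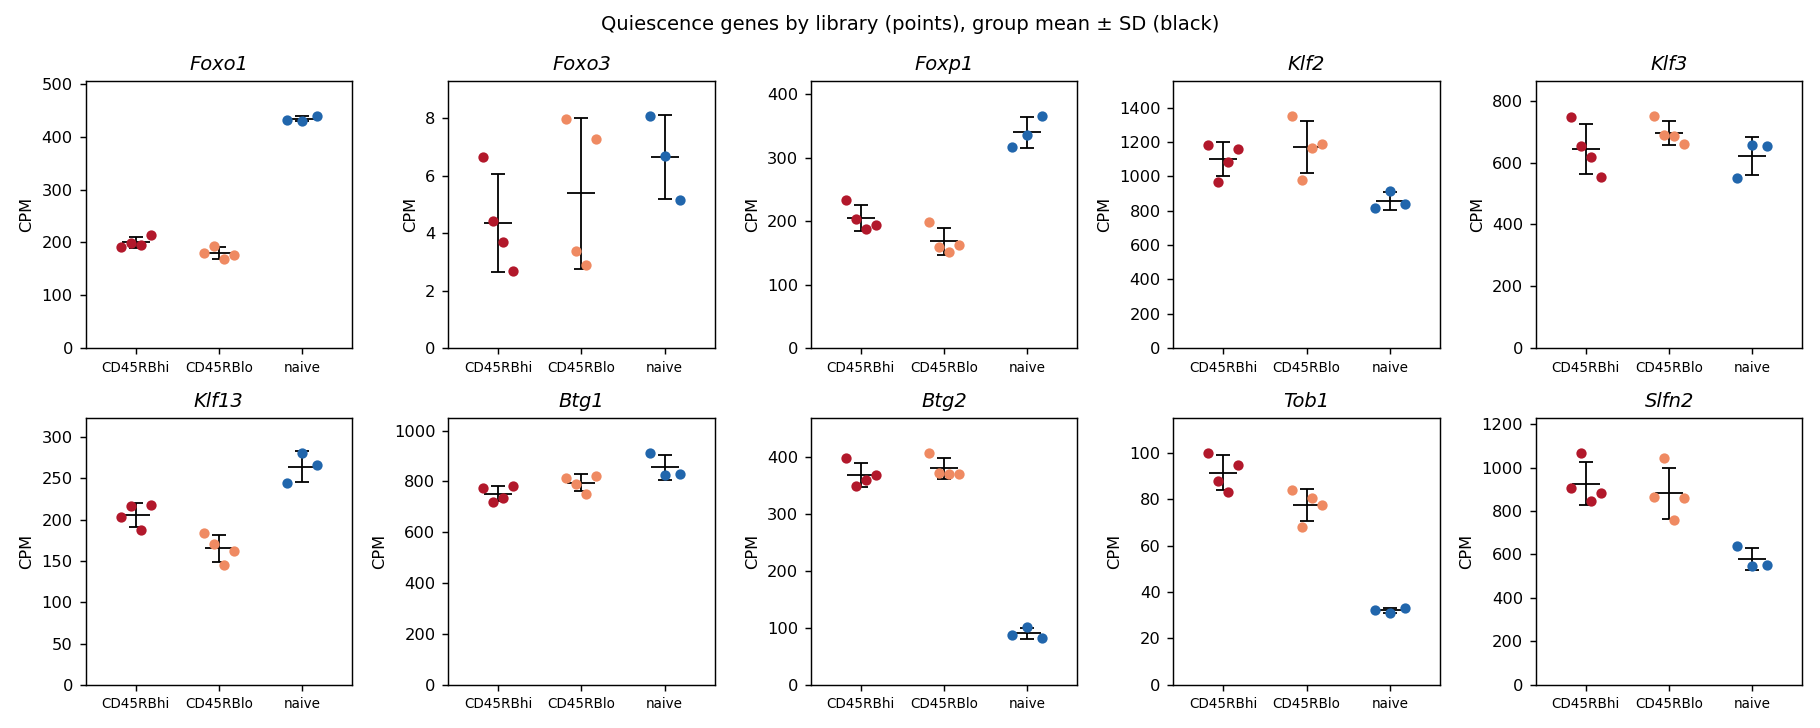
Levels of the 10 members in every library, in CPM on axes that start at 0, with 1 panel per gene. Points are libraries (4 CD45RBhi, 4 CD45RBlo and 3 naive), and bars are the mean and SD. Btg2 and Tob1 lay far above naive in every memory library, Foxo1 and Foxp1 lay below naive in every one, and Foxo3 and Klf3 overlapped between CD45RBhi and naive.

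Among the forkhead factors, Foxo1 fell by more than 1 log2 unit in both memory groups. This gene (ENSMUSG00000044167, chromosome 3 from 52268336 to 52353221 on GRCm38) encodes the main FOXO protein of T cells. It was at 191, 199, 196 and 215 CPM in CD45RBhi libraries 1 to 4, at 181, 194, 168 and 176 CPM in CD45RBlo libraries 1 to 4, and at 432, 430.4 and 439.7 CPM in naive libraries 1 to 3. Every memory library was below every naive library by a wide gap. The log2 fold change against naive was -1.12 ± 0.0721 (SE) in CD45RBhi (adjusted p = 8.00e-08) and -1.27 ± 0.0722 in CD45RBlo (adjusted p = 2.23e-08, edgeR quasi-likelihood test). Of all genes tested, 20.4% changed by more than Foxo1 in CD45RBhi and 18.5% in CD45RBlo.

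Foxp1 (ENSMUSG00000030067, chromosome 6 from 98925338 to 99522721) also fell in memory cells. It had 234, 203, 189 and 195 CPM in CD45RBhi libraries and 199, 159, 151 and 163 CPM in CD45RBlo libraries, against 318, 336 and 366 CPM in naive libraries. No memory library reached the lowest naive library. Against naive, the log2 fold change was -0.73 ± 0.106 in CD45RBhi (adjusted p = 0.000135) and -1.02 ± 0.107 in CD45RBlo (adjusted p = 7.06e-06, edgeR quasi-likelihood test). Foxp1 shares 300 exonic bases with Gm20696, a gene on the same strand that held 1660 counts over the 11 libraries against 50900 for Foxp1, so a few of its reads could be assigned either way.

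Foxo3, a second FOXO gene (ENSMUSG00000048756, chromosome 10 from 42181841 to 42276755), was the rarest member, with 51 to 177 counts in a library. It had 6.67, 4.43, 3.68 and 2.67 CPM in CD45RBhi libraries, 7.99, 3.39, 2.88 and 7.28 CPM in CD45RBlo libraries, and 8.09, 6.69 and 5.17 CPM in naive libraries. The groups overlapped, and the log2 fold change against naive was -0.61 in CD45RBhi (95% interval -1.43 to 0.22, adjusted p = 0.224) and -0.31 in CD45RBlo (-1.13 to 0.52, adjusted p = 0.554). These intervals are wide enough to hold a change as large as that of Foxo1 in CD45RBhi.

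The Krüppel-like factors each took a different course. Klf2 (ENSMUSG00000055148, chromosome 8 from 72319033 to 72321656) stood at 1184, 966, 1082 and 1162 CPM in CD45RBhi libraries and 1352, 978, 1164 and 1185 CPM in CD45RBlo libraries, against 817, 917 and 841 CPM in naive libraries. All memory libraries were above all naive libraries, with replicate 2 of both memory groups nearest to them. On the log2 scale the change was 0.36 ± 0.106 in CD45RBhi (adjusted p = 0.0167) and 0.45 ± 0.106 in CD45RBlo (adjusted p = 0.00442, edgeR quasi-likelihood test). The call in CD45RBhi was lost without naive replicate 1 (adjusted p = 0.0663), without naive replicate 3 (adjusted p = 0.0568), and with scaling by library size alone (0.21, adjusted p = 0.102), while the call in CD45RBlo was kept in all of these.

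Klf13 (ENSMUSG00000052040, chromosome 7 from 63886351 to 63938915), a factor first described in T cells as an activator of Ccl5, went the other way. It had 203, 216, 187.1 and 217 CPM in CD45RBhi libraries and 183, 171, 145 and 162 CPM in CD45RBlo libraries, against 245, 281 and 267 CPM in naive libraries. The 3 groups did not overlap at any point, with CD45RBlo lowest and naive highest. The log2 fold change against naive was -0.36 ± 0.0927 in CD45RBhi (adjusted p = 0.00737) and -0.68 ± 0.0926 in CD45RBlo (adjusted p = 7.24e-05, edgeR quasi-likelihood test).

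Klf3 (ENSMUSG00000029178, chromosome 5 from 64803388 to 64832901), which encodes a transcriptional repressor, did not pass in either contrast. Its levels were 749, 654, 619 and 553 CPM in CD45RBhi libraries, 751, 688, 688 and 659 CPM in CD45RBlo libraries, and 552, 659 and 655 CPM in naive libraries. The CD45RBhi libraries spanned almost the whole naive range, and the lowest CD45RBlo library lay less than 1 CPM above the highest naive library. The log2 fold change was 0.05 (95% interval -0.17 to 0.27) in CD45RBhi and 0.16 (-0.06 to 0.39) in CD45RBlo, and the sign of the first turned when single libraries were left out.

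Btg2 changed the most of the 10 members in both memory groups. This gene (ENSMUSG00000020423, chromosome 1 from 134075170 to 134079120), a target of p53 that slows entry into the cell cycle, had 397, 349, 359 and 368 CPM in CD45RBhi libraries and 407, 371, 369.6 and 370.1 CPM in CD45RBlo libraries, against 87.8, 101 and 81.4 CPM in naive libraries. Both memory groups sat in a narrow band that no naive library came near. The fold change against naive was 4.09 in CD45RBhi (log2 2.03 ± 0.0909, adjusted p = 2.81e-09) and 4.22 in CD45RBlo (log2 2.08 ± 0.091, adjusted p = 2.17e-09, edgeR quasi-likelihood test). Of all genes tested, 11.1% changed by more in CD45RBhi and 11.2% in CD45RBlo.

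Tob1 (ENSMUSG00000037573, chromosome 11 from 94211454 to 94215495), a BTG family protein that restrains T cell activation, had 100.2, 88.0, 83.0 and 95.004 CPM in CD45RBhi libraries and 84.1, 67.9, 80.5 and 77.7 CPM in CD45RBlo libraries, against 32.2, 31.1 and 33.1 CPM in naive libraries. The lowest memory library was still above every naive library. The fold change was 2.84 in CD45RBhi (log2 1.51 ± 0.102, adjusted p = 1.22e-07) and 2.41 in CD45RBlo (log2 1.27 ± 0.101, adjusted p = 5.41e-07, edgeR quasi-likelihood test).

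Btg1 (ENSMUSG00000036478, chromosome 10 from 96617006 to 96622809), the closest relative of Btg2, did not share its rise. It had 775, 717, 735 and 780.4 CPM in CD45RBhi libraries and 815, 792, 749 and 823 CPM in CD45RBlo libraries, against 913, 825 and 828 CPM in naive libraries. All memory libraries were below all naive libraries, in CD45RBlo by a few CPM. The log2 fold change was -0.19 ± 0.0678 in CD45RBhi (adjusted p = 0.0429) and -0.11 ± 0.0678 in CD45RBlo (adjusted p = 0.232, edgeR quasi-likelihood test). The call in CD45RBhi did not hold under several alternatives. It was lost with no filter on low counts (adjusted p = 0.16), with the CD45RBhi and naive libraries fitted alone (adjusted p = 0.0546), and when any one of CD45RBhi replicates 2, 3 and 4, CD45RBlo replicate 1 or naive replicates 1, 2 and 3 was left out (adjusted p = 0.0514 to 0.194), and with scaling by library size alone Btg1 also passed in CD45RBlo (-0.24, adjusted p = 0.00679).

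Slfn2 (ENSMUSG00000072620, chromosome 11 from 83065112 to 83070678) had 908, 1069, 844 and 882 CPM in CD45RBhi libraries and 865, 1042, 758 and 861 CPM in CD45RBlo libraries, against 638, 549 and 551 CPM in naive libraries. Every memory library was above every naive library, and replicate 2 was highest in both memory groups. Against naive, the log2 fold change was 0.68 ± 0.114 in CD45RBhi (adjusted p = 0.000416) and 0.61 ± 0.114 in CD45RBlo (adjusted p = 0.000878, edgeR quasi-likelihood test). Schlafen genes resemble each other in sequence, and how reads matching several genes were counted is not given in the sources used here.

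**Figure D2:**
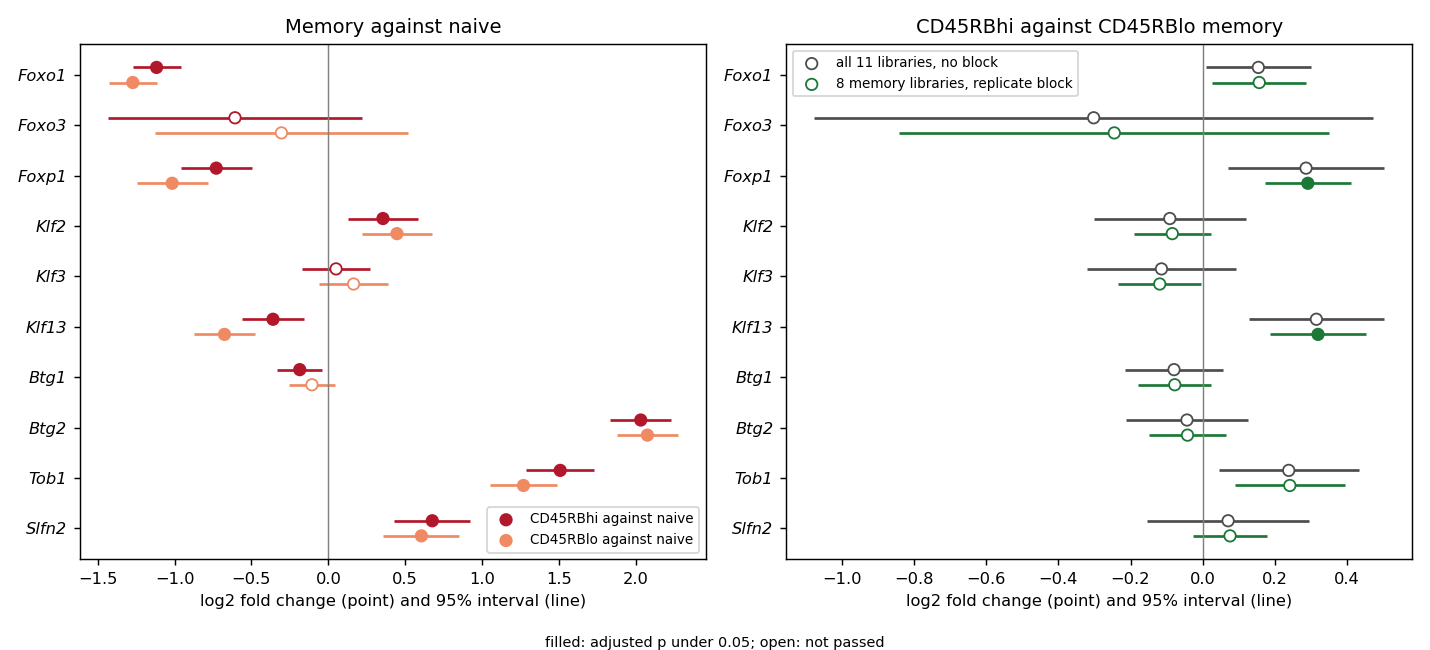
Log2 fold changes of the 10 members, with 95% intervals, in CD45RBhi against naive, CD45RBlo against naive and CD45RBhi against CD45RBlo libraries. Btg2 lies near 2 in both memory groups, Tob1 above 1 and Foxo1 below -1, and the differences between the memory groups lie between -0.30 and 0.32.

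The changes altered the order of the members by level. Divided by exon length (CPM per kb, exon lengths from GENCODE M21), Klf2 and Slfn2 led in all 3 groups. Klf2 averaged 595 CPM per kb in CD45RBhi, 633 in CD45RBlo and 465 in naive libraries, and Slfn2 averaged 556, 529.7 and 348 CPM per kb in the same groups. The ranges of these 2 genes overlapped in both memory groups but not in naive cells. Btg1 came next in every group, at 143 CPM per kb in CD45RBhi, 151 in CD45RBlo and 162 in naive libraries. Btg2 stood beside it in memory cells, at 134 CPM per kb in CD45RBhi and 138 in CD45RBlo, with ranges that overlapped those of Btg1, but at 32.8 in naive cells, where it was in place 7 and its range overlapped that of Klf13.

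Foxo1 moved the other way in this order. It was in place 8 of 10 in CD45RBhi (23.1 CPM per kb) and in CD45RBlo (20.7), and in place 5 in naive cells (50.1), where its range overlapped that of Klf3 (55.3). In CD45RBlo libraries Foxo1 and Klf13 overlapped. Tob1 averaged 40.01 CPM per kb in CD45RBhi and 33.9 in CD45RBlo libraries, above Klf13, Foxo1 and Foxp1, against 14.1 in naive libraries, below all 3. Foxo3 was last in each group, under 1 CPM per kb on average. Other neighbours in each order did not overlap. The 10 members together made up 4297 to 4747 CPM in CD45RBhi, 4277 to 4846 in CD45RBlo and 4043 to 4136 in naive libraries.

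**Figure D3:**
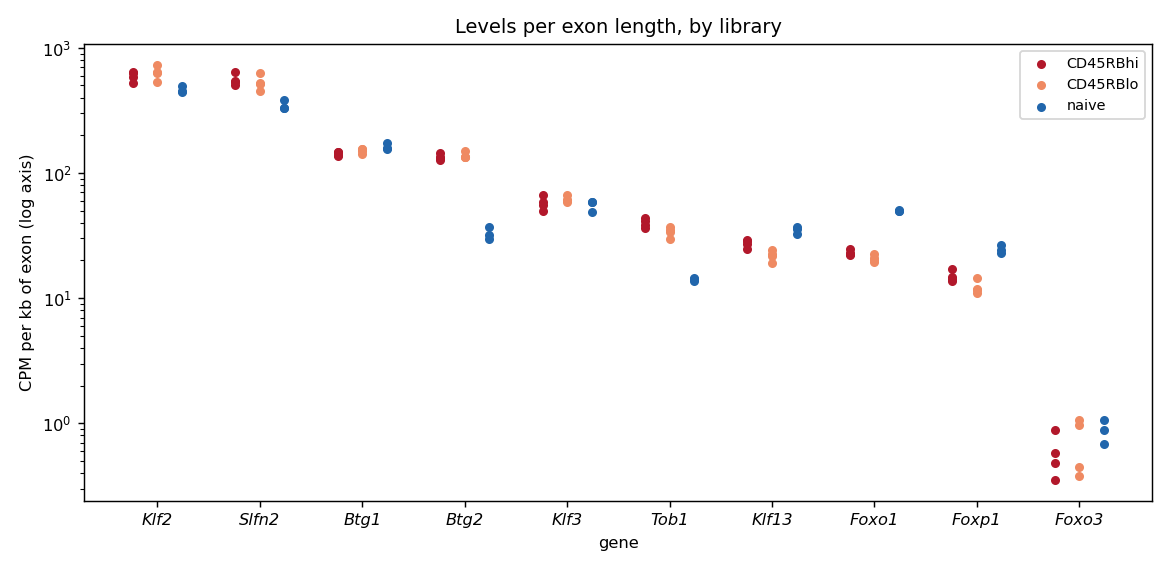
Level of each member per kb of exon, on a log axis in CPM per kb. Each point is 1 library of CD45RBhi, CD45RBlo or naive cells. Klf2 and Slfn2 are at the top in every group, Btg2 and Tob1 stand higher in memory cells, and Foxo1, Foxp1 and Klf13 stand higher in naive cells.

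Between the memory groups, log2 fold changes of the members (CD45RBhi over CD45RBlo) ran from -0.30 for Foxo3 to 0.32 for Klf13. Without pairing of the libraries, 0 of 10 members passed between CD45RBhi and CD45RBlo in edgeR's quasi-likelihood test and 0 in DESeq2. An unadjusted p under 0.05 was reached by 4 (Foxo1, Foxp1, Klf13 and Tob1), all higher in CD45RBhi, and by 1236 of the 13735 genes tested. Over all genes, 0.124% passed, 0.0801% higher and 0.0437% lower in CD45RBhi. Klf13 was the single member whose groups did not overlap, against 4.99% of all genes.

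CD45RBhi and CD45RBlo libraries of the same replicate number deviated together, so the memory groups were also compared within pairs. In that fit 2 of 10 members passed, both higher in CD45RBhi, while 5.59% of the genes tested passed, 2.52% higher and 3.08% lower. Klf13 was higher in CD45RBhi by 0.32 ± 0.0609 (adjusted p = 0.0122, higher in 4 of 4 pairs), against 0.32 ± 0.0865 without pairing (adjusted p = 0.270). Foxp1 was higher by 0.29 ± 0.0548 (adjusted p = 0.0112, 4 of 4 pairs, edgeR quasi-likelihood test with the replicate number as a block), against 0.29 ± 0.0996 without pairing (adjusted p = 0.409). Both calls depended on single pairs. Without pair 3, Foxp1 was at an adjusted p of 0.0779 and Klf13 at 0.0846, and without pair 4 Klf13 was at 0.062.

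Of the other members, Tob1 was higher in CD45RBhi by 0.24 in the paired fit (95% interval 0.09 to 0.39, adjusted p = 0.0652) and Foxo1 by 0.16 (0.03 to 0.29, adjusted p = 0.151), each in 4 of 4 pairs, and neither passed. Slfn2 was 0.08 higher in CD45RBhi and higher in 4 of 4 pairs (adjusted p = 0.376). Klf2 (-0.08, interval -0.19 to 0.02), Klf3 (-0.12, -0.23 to -0.0043), Btg1 (-0.08, -0.18 to 0.02) and Btg2 (-0.04, -0.15 to 0.06) were lower in CD45RBhi in 4 of 4 pairs and did not pass. In all, 5 members were higher and 4 lower in every pair, where 14.6% of the genes tested were higher and 14.4% lower in every pair. Among the 8402 genes averaging at least 10 CPM, as 9 of the 10 members do, the shares were 16.7% and 15.7%. Foxo3 was mixed, at -0.25 with an interval of -0.84 to 0.35.

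**Figure D4:**
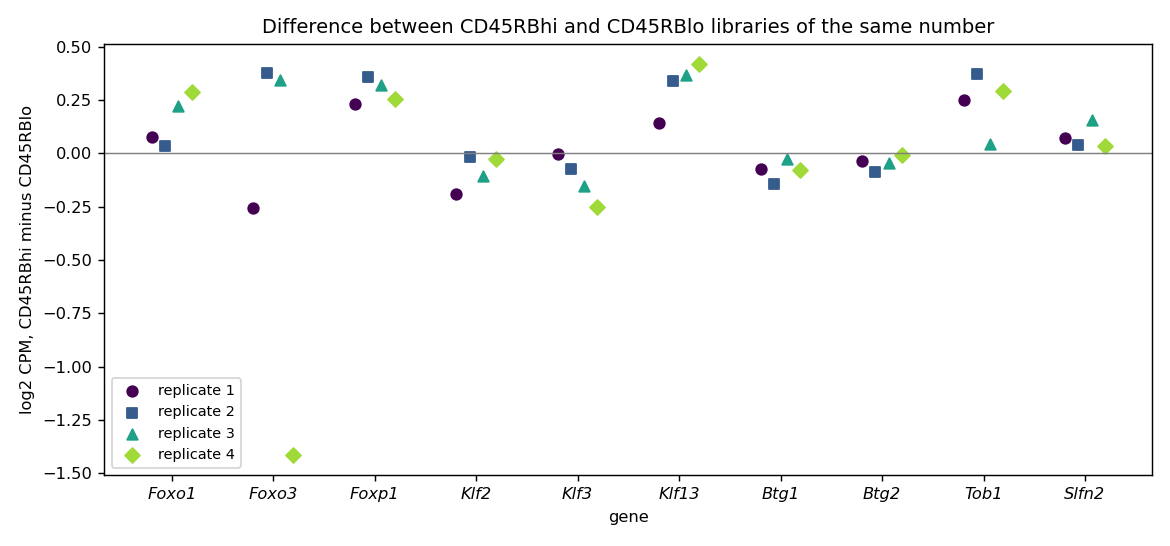
Difference between the CD45RBhi and the CD45RBlo library of each replicate pair, as log2 of the CPM ratio, for the 10 members. Each point is 1 of 4 pairs. Foxo1, Foxp1, Klf13, Tob1 and Slfn2 lie above 0 in all 4 pairs, and Klf2, Klf3, Btg1 and Btg2 lie below 0 in all 4. Foxo3 spreads from -1.41 to 0.37.

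Relatives of the members were counted next, from lists of family genes. Counts of this and the later lists stand beside the shares of all genes tested. Against naive these were 22.3% higher and 19.1% lower in CD45RBhi, and 22.4% higher and 19.8% lower in CD45RBlo. Among 11 other forkhead genes tested, Foxd2 was higher and Foxk1 and Foxp3 were lower in CD45RBhi against naive, and in CD45RBlo Foxp4 was higher as well. Foxd2 had 6.97 ± 1.52 CPM in CD45RBhi, 7.89 ± 1.79 in CD45RBlo and 2.34 ± 0.971 in naive libraries (SD), and Foxk1 had 12.97 ± 3.56, 14.6 ± 4.03 and 27.9 ± 4.13. Foxp3, the factor of regulatory T cells, was at 0 in all CD45RBhi libraries and averaged 0.0236 CPM in CD45RBlo libraries, against 1.09 CPM in naive libraries. The Foxp4 call (0.62, adjusted p = 0.0141) was lost without naive replicate 3 (0.53, adjusted p = 0.0673).

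Among 13 other KLF and SP genes tested, 4 were higher and 1 was lower in CD45RBhi against naive, and 5 were higher and 1 lower in CD45RBlo. Klf10, which is induced by TGF-beta, had 119 ± 19.2 CPM in CD45RBhi and 133 ± 18.2 in CD45RBlo against 27.7 ± 0.367 in naive libraries (log2 fold changes 2.11 and 2.26, adjusted p = 1.27e-07 and 6.47e-08, edgeR quasi-likelihood test). Klf6 was higher by 0.61 in CD45RBhi and 0.56 in CD45RBlo, and Klf4 was higher too but averaged under 1 CPM in each group. Klf7 was lower, at 19.6 ± 2.29 CPM in CD45RBhi and 16.7 ± 1.90 in CD45RBlo against 53.6 ± 4.401 in naive libraries (-1.45 and -1.68). In the paired fit Klf16 was lower in CD45RBhi than in CD45RBlo by 0.42 on the log2 scale (adjusted p = 0.0304), and no other gene of the list passed. Without pairing no gene of the list passed.

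Both other BTG and TOB genes tested were higher in memory cells. Tob2 had 112 ± 18.6 CPM in CD45RBhi and 118 ± 16.7 in CD45RBlo against 69.7 ± 5.50 in naive libraries, and Btg3 had 16.03 ± 3.04 and 16.3 ± 1.32 against 9.63 ± 0.625. A list of 16 deadenylase genes and partners covered CCR4-NOT, which BTG and TOB proteins bring to messenger RNAs, and also the PAN deadenylase and Parn. It showed no common direction, with 2 higher and 4 lower in CD45RBhi against naive and 2 higher and 3 lower in CD45RBlo. Cnot6l, a catalytic subunit, was higher by 1.03 in CD45RBhi and 0.84 in CD45RBlo, and Cnot11 by 0.34 and 0.34. The deadenylase genes Pan2 (-0.91 and -0.69) and Parn (-0.51 and -0.58) were lower in both (adjusted p of these 4 genes at most 0.00453, edgeR quasi-likelihood test). The Cnot11 calls were lost with scaling by library size alone (adjusted p = 0.0898 in CD45RBhi and 0.0794 in CD45RBlo).

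Among 5 other Schlafen genes tested, Slfn9 was higher in both memory groups (0.76 in CD45RBhi and 0.81 in CD45RBlo) and Slfn1 was lower in both (-0.57 and -0.84). Slfn5 was lower in both as well (-0.75 and -0.81) and Slfn8 was lower in CD45RBhi (-0.39), but the call of Slfn8 and both calls of Slfn5 were lost when single libraries were left out, naive replicate 1 among them (adjusted p = 0.173 for Slfn8, and 0.134 and 0.106 for Slfn5). Slfn1 was higher in CD45RBhi than in CD45RBlo in the paired fit (0.26, adjusted p = 0.0360) but did not pass without pairing.

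Known targets of FOXO factors were divided. Of 23 tested, 7 were higher and 8 lower in CD45RBhi against naive, and 9 were higher and 9 lower in CD45RBlo, with medians of 0.07 and 0.11 beside -0.01 over all genes. Sesn1, a stress-induced inhibitor of mTORC1, had 55.5 ± 4.90 CPM in CD45RBhi and 49.2 ± 0.65 in CD45RBlo against 239 ± 7.64 in naive libraries (-2.10 and -2.28). Irs2, an adaptor of insulin receptor signalling, had 3.15 ± 0.726 and 1.60 ± 0.438 against 39.8 ± 8.24 CPM (-3.66 and -4.63). Pik3ip1, an inhibitor of PI3K, was lower by 1.56 on the log2 scale in CD45RBhi and by 1.76 in CD45RBlo. Il7r, a FOXO1 target that encodes the IL-7 receptor chain, went against them and was higher by 1.01 and 0.38. In the paired fit 5 of 23 targets were higher and 2 lower in CD45RBhi than in CD45RBlo. Of all genes tested in that fit, 2.52% were higher and 3.08% lower. Il7r (0.64), Tcf7 (0.36) and Ccr7 (0.43) were among the higher targets, while without pairing 1 target, Il7r, passed (adjusted p = 0.00147). Unlike Il7r, Tcf7 and Ccr7 had lower means in both memory groups than in naive libraries. Tcf7 averaged 1360 CPM in CD45RBhi, 1063 in CD45RBlo and 2162 in naive libraries, and Ccr7 154, 114 and 1625 CPM.

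Of 9 KLF2 targets tested, 4 were higher and 2 lower in CD45RBhi against naive, and 5 were higher and 3 lower in CD45RBlo. The chemokine receptor gene Cxcr3, which rises in mouse T cells that lack Klf2, had 982 ± 100 CPM in CD45RBhi and 828.7 ± 84.7 in CD45RBlo against 41.6 ± 4.56 in naive libraries (4.56 and 4.32). The integrin gene Itgb7 was higher by 0.60 and 0.48. S1pr1, the receptor for exit from lymphoid tissue that KLF2 activates, was at 1222 ± 70.7 CPM in CD45RBhi, 1088 ± 80.6 in CD45RBlo and 1371 ± 80.6 in naive libraries. It did not pass in CD45RBhi against naive (-0.17, adjusted p = 0.107) and was lower in CD45RBlo (-0.33, adjusted p = 0.00396). S1pr1 is named here after its values were seen. It stands in both target lists.

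**Figure D5:**
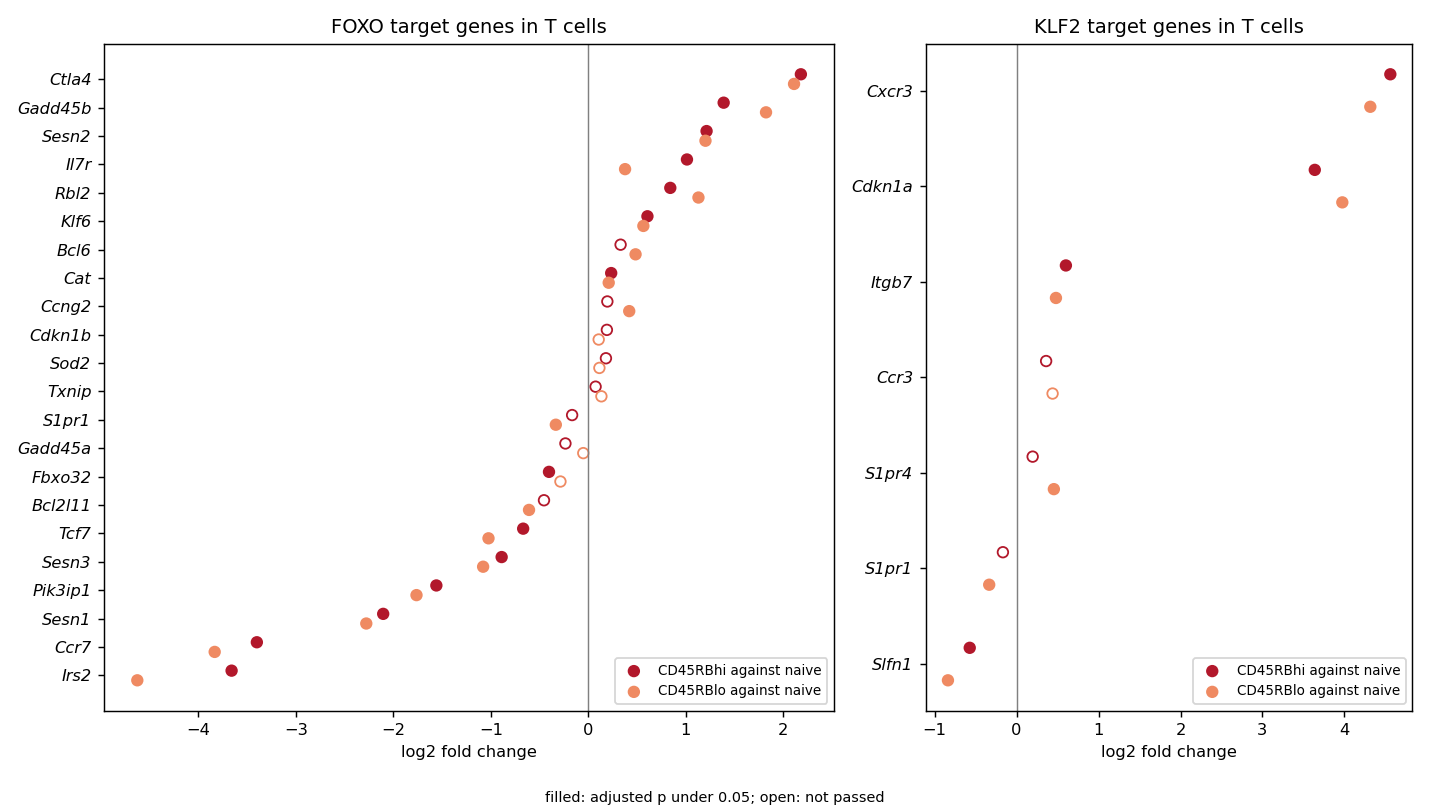
Log2 fold changes against naive of FOXO and KLF2 target genes, in CD45RBhi and CD45RBlo libraries, with filled points for genes that passed. Targets lie on both sides of 0, from Irs2, the lowest of those drawn, to Cxcr3, the highest.

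The PI3K-AKT-mTOR pathway, which controls FOXO localization, also split, with 9 of 26 genes higher and 7 lower in CD45RBhi against naive and 9 higher and 5 lower in CD45RBlo. Inpp4b, a phosphatase that dampens PI3K signalling, was lower in both (-2.03 and -2.06), with 70.5 ± 6.35 CPM in CD45RBhi and 68.8 ± 12.6 in CD45RBlo against 288 ± 7.03 in naive libraries. Sgk1, a kinase that phosphorylates FOXO factors, was higher (1.00 and 1.16), and so was Akt1 (0.41 and 0.44). Rictor, the defining subunit of mTORC2, was lower (-0.42 and -0.59). In the paired fit 1 of 25 genes passed, Pik3r5, which was lower in CD45RBhi by 0.22 on the log2 scale (adjusted p = 0.0341). Without pairing no gene of this pathway passed.

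Cell cycle genes were read beside the anti-proliferative members. Of 8 CDK inhibitors and pocket proteins tested, 4 were higher in CD45RBhi against naive and 5 in CD45RBlo, and none was lower. Rbl2, which encodes the pocket protein p130 of resting cells, had 328 ± 53.4 CPM in CD45RBhi and 400.1 ± 51.5 in CD45RBlo against 183 ± 12.6 in naive libraries (0.84 and 1.13). Cdkn2c had 9.52 ± 2.29 and 10.2 ± 0.536 against 4.56 ± 0.195 CPM, and Cdkn1a and Cdkn2b were higher but stayed under 4 CPM in each group's mean. In the paired fit Rbl2 was lower in CD45RBhi than in CD45RBlo by 0.29 on the log2 scale (adjusted p = 0.0198), and it did not pass without pairing. Rbl2 is also counted among the FOXO targets and Cdkn1a among the KLF2 targets, so these counts are not separate. Of 12 genes for D and E cyclins, their CDKs and E2F factors, 5 were higher in CD45RBhi and 4 in CD45RBlo, none was lower and the others did not pass. The D cyclin gene Ccnd3 had 915 ± 88.3 CPM in CD45RBhi and 874 ± 111 in CD45RBlo against 356 ± 7.69 in naive libraries. Ccne1, an E cyclin gene, passed in both (0.50 and 0.47), but both calls were lost with scaling by library size alone (adjusted p = 0.103 in CD45RBhi and 0.119 in CD45RBlo) and the call in CD45RBhi without CD45RBhi replicate 3 or naive replicate 1 (adjusted p = 0.0547 and 0.0997). The call in CD45RBlo was lost without CD45RBlo replicates 3 or 4 or naive replicates 1 or 3 (adjusted p = 0.0607 to 0.123).

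Proliferation genes were higher in memory cells too, for 16 of 18 in CD45RBhi and 10 of 18 in CD45RBlo, with none lower and medians of 2.08 and 1.09. Tyms, the thymidylate synthase, had 32.8 ± 3.03 CPM in CD45RBhi and 29.2 ± 2.01 in CD45RBlo against 6.91 ± 1.06 in naive libraries, and Rrm2 had 27.5 ± 8.74 and 18.4 ± 3.51 against 4.96 ± 0.845. In the paired fit 8 of the 18 were higher and none lower in CD45RBhi than in CD45RBlo, where 2.52% of all genes tested were higher. The 4 with the smallest p in the paired fit were Nusap1 (1.35), Cdc6 (2.21), Rrm2 (0.56) and Ccna2 (1.47). Without pairing none of the 18 passed. Means in CD45RBhi and CD45RBlo were low for Nusap1 (4.18 and 1.69 CPM), Cdc6 (5.14 and 1.12) and Ccna2 (7.39 and 3.06).

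Btg2 belongs to the genes that cells induce within an hour or so of a stimulus, so other immediate early and stress genes were set beside it. Of 19 tested, 5 were higher and 8 lower in CD45RBhi against naive, and 6 were higher and 8 lower in CD45RBlo. Ier3 was higher in both (2.78 and 2.71), while Egr1 (-2.78 and -2.73) and Zfp36 (-0.59 and -0.70) were lower in both.

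The genes most like each member were found by the root mean square difference of log2 CPM over the 11 libraries, each gene centred on its mean, among 8402 genes averaging at least 10 CPM. All libraries share the split into memory and naive, which dominates this measure. Btg2 was nearest to Ctsd (0.101), Cercam (0.103) and Eomes (0.112), and Tob1 to Gabarapl2 (0.0965), Ccnd3 (0.124) and Vim (0.126). Foxo1 was nearest to Peli1 (0.0790), Ppp1r14b (0.103) and Mpp1 (0.103), and Foxp1 to Znrf3 (0.101), Rpl12 (0.108) and Zeb1 (0.118). Klf2 was nearest to Uhrf2 (0.0622), Gsk3b (0.0698) and Ccdc82 (0.0828), and Klf13 to Trp53 (0.0855), Rpl6 (0.0891) and Gm2a (0.0948). Slfn2 was nearest to Panx1 (0.0513), Pld3 (0.0557) and Dnajb11 (0.0715), Btg1 to Tmem230 (0.0540), Ppm1a (0.0547) and Ppm1g (0.0615), and Klf3 to Homez (0.0714), Zfp84 (0.0824) and ENSMUSG00000108314 (0.0838). Foxo3, the least abundant member, had the largest differences, its nearest being Snx30 (0.364) and Pag1 (0.369). These differences are not scaled by how much each member varied itself. The SD of log2 CPM over the libraries was 0.0971 for Btg1, 0.146 for Klf3, 0.585 for Foxo3 and 0.965 for Btg2. A small difference for a gene that hardly varied, such as Btg1 or Klf3, is therefore no sign of a closer match. No member was among the 3 nearest of another.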

How the data were processed

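The authors deposited 1 table of raw counts per Ensembl gene for 11 libraries. The submitters' processing notes name SAMtools, featureCounts, DESeq2, mm10 and GRCm38, without versions. No source used here gives the aligner, the annotation release or the use of strand.

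Counts of 13735 genes kept by filterByExpr (minimum count 10) were scaled by TMM and fitted with edgeR 4.0.16 in R 4.3.3 (limma 3.58.1), as 3 group means over all 11 libraries. Groups were compared by the two-sided quasi-likelihood F test, calling genes at a Benjamini-Hochberg adjusted p under 0.05. The coefficient of variation between libraries beyond counting error was 18.7% (edgeR common dispersion), and it may be technical in part. CPM use effective library sizes, and the limit set by a count of 0 (3 counts) is 0.130 to 0.170 CPM (counting error only). Exon lengths and gene positions are from GENCODE M21 on GRCm38, which need not be the annotation used for counting. Replicates were checked for duplicates: 0 of 15 pairs were identical, with chi-square per degree of freedom from 9.43 to 84.7.

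Replicate numbers are shared between groups. Across genes, deviations from the group mean of CD45RBhi and CD45RBlo libraries with 1 number correlated at 0.191 to 0.452, and those of different number at -0.331 to 0.0284, so the numbers were taken as pairs. This pairing is read from the data, since the labels do not give it. For memory against naive the same check gave -0.101 to 0.0565, and these were not paired. The paired fit took the 8 memory libraries with the number as a block and tested 12637 genes (coefficient of variation 9.88%).

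The members and the 21 gene lists were chosen with earlier results of these data known. Some genes stand in more than 1 list, with 257 entries for 248 genes. Of the lists, up to 4 genes by p among those that passed are named per comparison, all members whatever their p, and the 3 genes most like each member. A few genes that this rule or the list counts include are not reported here. Alternatives were DESeq2 1.42.0, its size factors, library size alone, no filter, a minimum count of 50, fits of the groups compared alone, replicate blocks and leaving out each library, and leaving out replicate 1 of both memory groups was added after seeing the data. Figures used matplotlib 3.10.9 and promoter searches Python 3.11.15. Tests were tried on simulated data first.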

Additional observations from a re-analysis of the deposited data

Results flagged for a closer look

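Btg2 in CD45RBlo replicate 1, at 407.2 CPM, stood apart from the other CD45RBlo libraries, with a gap to the nearest of 0.958 of the range of the group. Of 20 groups of 4 libraries looked at this way, chance would set apart about 1 in 20. The CD45RBhi library of the same number was also the highest of its group for Btg2, at 397 CPM. Without CD45RBlo replicate 1, the log2 fold change of Btg2 in CD45RBlo against naive was 2.04, beside 2.08 with it.

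The level differed between the memory groups for 2 members when libraries were paired. For Foxp1 CD45RBhi minus CD45RBlo was 0.29 on the log2 scale (adjusted p = 0.0112), and for Klf13 it was 0.32 (adjusted p = 0.0122, edgeR quasi-likelihood test with the replicate number as a block). This is the difference between the memory groups given above, from a fit of the 8 memory libraries that held no naive library. Neither gene passed without pair 3 or without pairing.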

How the results depend on the processing

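Under all 19 alternatives in each contrast with naive, Foxo1, Foxp1, Klf13, Btg2, Tob1 and Slfn2 kept their direction and their call, and Klf2 did so in CD45RBlo. Members called ranged from 6 to 8 in CD45RBhi and stayed at 7 in CD45RBlo when single libraries were left out. Scaling by library size alone moved the median of all genes to -0.16 in CD45RBhi and -0.14 in CD45RBlo, and turned the split of calls against naive to 2301 higher and 3724 lower in CD45RBhi (3064 and 2630 with TMM) and to 2356 higher and 3609 lower in CD45RBlo (3072 and 2722). A block on replicates 1 to 3 lowered the calls in CD45RBhi against naive from 5694 to 3736, and Klf2 and Btg1 then missed the threshold there (adjusted p = 0.0829 and 0.183). Naive libraries were not paired with memory libraries, so this block is no measure of strength.

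Klf3 in CD45RBhi against naive turned to -0.0988 with library size alone and -0.0300 without replicate 1 of both memory groups, and ran from -0.0318 (without CD45RBhi replicate 1) to 0.116 without single libraries, with -0.0269 without naive replicate 1. Between the memory groups, Foxo3 turned to 0.14 in the paired fit without replicate 4, and Slfn2 ran from -0.0060 (without CD45RBhi replicate 2) to 0.161 without single libraries. The cause was not tested.

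Between CD45RBhi and CD45RBlo, 17 genes passed as reported, 144 with DESeq2, 4 with the 2 memory groups alone, and 6 to 15 without single libraries (6 without CD45RBhi replicate 3, CD45RBhi replicate 4 or naive replicate 3, 7 without CD45RBlo replicates 3 or 4 or naive replicates 1 or 2, and 9 without CD45RBlo replicate 1). With the replicate block 707 passed, and 344, 667, 167 and 300 without replicates 1, 2, 3 and 4. Members called were 0 as reported, 2 with the block, and 2, 2, 0 and 1 without replicates 1, 2, 3 and 4. The paired calls named for other genes, Il7r apart, were not checked without single pairs.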
